A study of Mus musculus with 6 samples.

Results

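Peroxisome proliferator-activated receptor alpha (PPAR alpha) is a nuclear receptor that binds fatty acids, pairs with a retinoid X receptor and switches on genes of fat uptake, storage and oxidation. It is abundant in heart muscle, which burns mostly fatty acids, and fasting raises the supply of its ligands. The genes described here are 8 known targets of this receptor that respond to fasting. Acot1 and Acot2 encode thioesterases that split acyl-CoA into free fatty acid and CoA in the cytosol and the mitochondria. Ucp2 and Ucp3 encode carriers of the inner mitochondrial membrane, Plin2 and Plin5 encode coat proteins of lipid droplets, and Angptl4 and Fgf21 encode secreted factors. The rows were found by matching Ensembl identifiers to these symbols, and all 8 were present among the 49315 genes of the table.

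RNA was sequenced from 6 hearts of C57BL/6 mice, 3 from wild-type animals and 3 from animals carrying a CRISPR-Cas9 knockout of Arrdc4. Arrdc4 encodes an alpha-arrestin, an adaptor protein, and its relative Txnip limits glucose uptake. The sources used here give no age, feeding state, time of collection or account of how the knockout line was founded. The comparison of genotypes asks which of these transcripts differ when Arrdc4 is lost. Libraries held 29974501 to 41036626 counts. Arrdc4 had 349, 307 and 281 reads in wild-type replicates 1 to 3 and 5, 1 and 2 in knockout replicates 1 to 3, which matches the labels, and its adjusted p was 0.00226 in edgeR. Wild-type replicate 3 and knockout replicate 2 resembled each other more than any other pair of hearts, with a chi-square per degree of freedom of 7.89, against 26.8 or more for every other pair. Heart muscle markers were abundant in all 6 hearts, with 10 of 10 detected. Of 11 adipocyte markers 2 passed the filter on low counts, Fabp4 and Cidea, and the defining genes Adipoq, Plin1 and Lep stayed at or under 0.157 CPM in each heart (counts per 1e6 library counts, after scaling of the libraries).

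None of the 8 genes was called different between knockout and wild-type hearts. Of these, 7 passed the filter on low counts and were tested, and Fgf21 was too low. In edgeR's quasi-likelihood test the adjusted p was 1 for each of the 7, while 0.00689% of all tested genes were called, which was Arrdc4 alone. At an unadjusted p under 0.05 the count was 0 of 7, against 1.23% of all genes. Knockout and wild-type values overlapped for all 7, and 4.07% of all genes had groups that did not overlap. Knockout means were higher for 4 genes and lower for 3, with a median log2 fold change of 0.01, the same as over all 14508 genes tested. Fold changes were bounded fairly closely. The 95% interval lay within a 2-fold difference in either direction for 6 of 7 genes, Angptl4 being the exception, and 76.5% of all genes met that bound. A tighter bound of 1.5-fold was met by 4 genes, Acot2, Ucp2, Plin2 and Plin5, and by 39.7% of all genes.

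**Figure D1:**
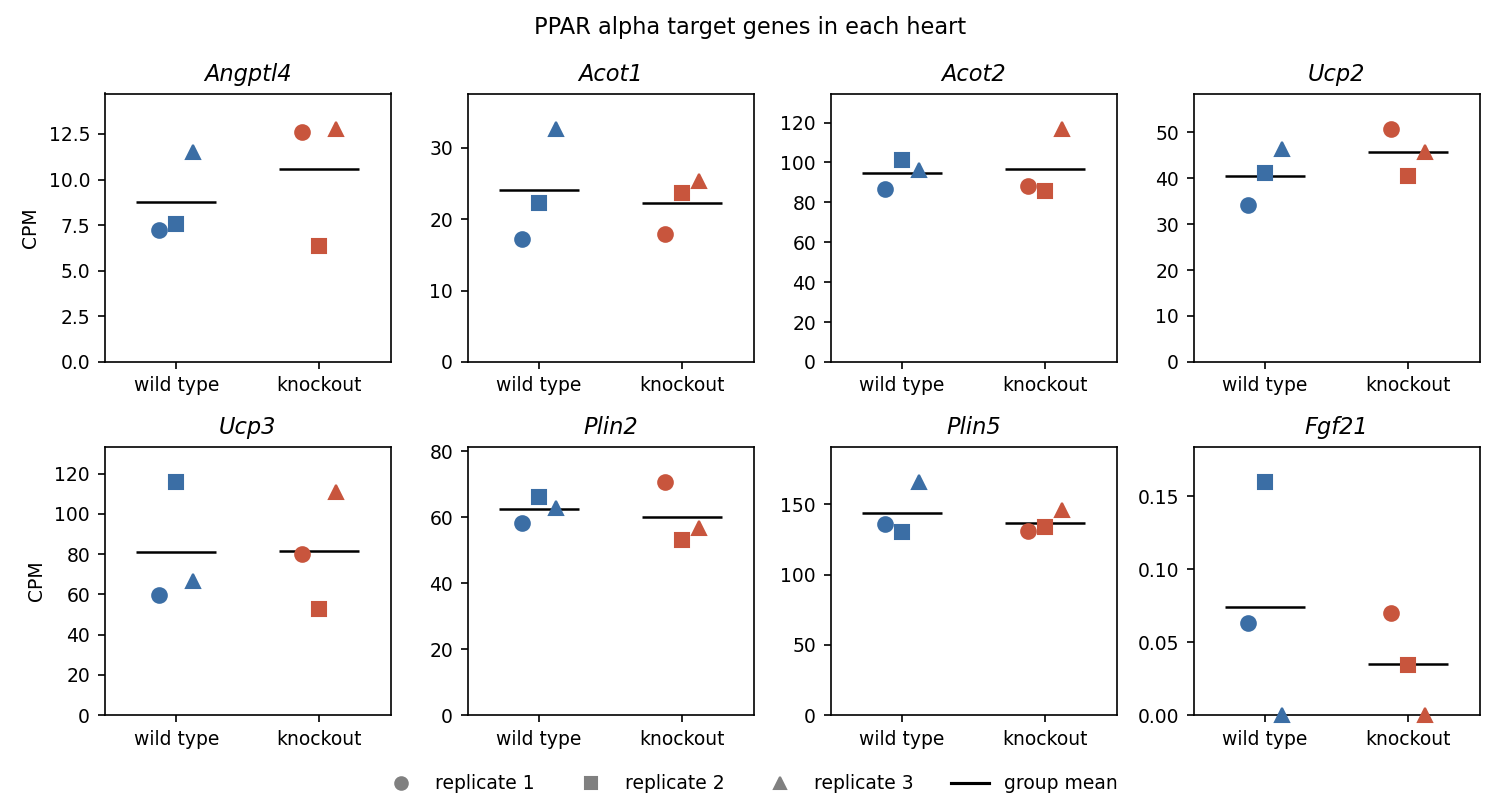
Level of each of the 8 PPAR alpha target genes in CPM (vertical axis, from 0) in the 3 wild-type (blue) and 3 knockout (red) hearts. Marker shape gives the replicate number, which the labels do not give as a pairing of hearts, and the black line is the group mean. For every tested gene the red and blue points overlap in range.

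Per kilobase of exon the genes spanned a wide range of levels. Plin5 was the most abundant, with a mean of 67.3 ± 6.61 CPM per kb over the hearts (SD, n = 6), followed by Acot2 at 43.5 ± 5.46. Ucp3 stood at 25.9 ± 8.52 and Plin2 at 17.5 ± 1.87 CPM per kb. Their ranges overlapped, although Ucp3 was above Plin2 in 6 of 6 hearts. Ucp2 (6.17 ± 0.824) and Acot1 (5.90 ± 1.44) did not differ beyond their spread. Angptl4 was lower, at 2.73 ± 0.829 CPM per kb, and Fgf21 was near absence at 0.0574. Each length is the union of all annotated exons, so a gene with many transcript forms, such as Ucp2 with 11, is divided by more sequence than any 1 of its transcripts holds. In bulk tissue, fewer cells of a type and less RNA per cell cannot be told apart, which holds for every level given here.

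The receptor itself and its partners were measured alongside its targets. Ppara stood at 40.2, 38.3 and 38.9 CPM in the wild-type hearts and at 40.2, 33.3 and 47.0 CPM in the knockout hearts. The groups overlapped, and the log2 fold change was 0.04 (SE 0.16). Among 19 receptors, partners and coregulators, all tested, 13 had higher and 6 lower knockout means, none was called, and the median log2 fold change was 0.04. The split turned to 6 and 13 when wild-type replicate 3 was left out, and to 7 and 12 when knockout replicate 3 was, and the median ran from -0.07 to 0.18. No gene of this list had an unadjusted p under 0.05 in edgeR. Among those with the smallest p were the acetyltransferase Crebbp (log2 fold change 0.19, SE 0.24, edgeR unadjusted p = 0.445) and the Mediator subunit Med1 (-0.09, SE 0.13, edgeR unadjusted p = 0.486). A 2-fold difference lay outside the 95% interval for all 19.

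Acot1 and Acot2 are neighbours on mouse chromosome 12 and near copies of each other, which bears on how their reads can be told apart. In GRCm38 with the GENCODE annotation, Acot1 (ENSMUSG00000072949) lies at chr12:84009490-84018371 and Acot2 (ENSMUSG00000021226) at chr12:83987861-83993873, both on the plus strand. Over 1239 aligned coding bases, 1183 were identical (95.5%), and the longest identical run was 273 bases in exon 3 of both genes. The following stretches are the 60 coding bases of exon 3 in which the genes differ most, shown because reads from here can be assigned to 1 gene. Capitals mark the 13 bases that differ, and the stretches lie at chr12:84016942-84017001 for Acot1 and chr12:83992664-83992723 for Acot2, both plus strand.
Acot1: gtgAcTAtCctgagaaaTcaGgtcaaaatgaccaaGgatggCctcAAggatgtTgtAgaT
Acot2: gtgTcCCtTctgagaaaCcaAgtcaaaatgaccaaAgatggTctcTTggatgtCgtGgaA
Of all 50-base words in its transcripts, Acot1 shares 19.2% with some other gene and 13.6% with Acot2, and Acot2 shares 24.5% of its words with Acot1. The sources used here do not say how reads that match both genes were counted, so the split between the 2 is uncertain. No such overlap touched Angptl4, Ucp3, Plin5 or Fgf21, while Plin2 shared 2.57% of its words with Gm12551.

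Acot1 stood at 17.2, 22.2 and 32.7 CPM in wild-type replicates 1 to 3 and at 17.9, 23.6 and 25.3 CPM in knockout replicates 1 to 3. Wild-type replicate 3 was the highest heart and wild-type replicate 1 the lowest, so that the knockout range fell inside the wild-type range. The log2 fold change was -0.11 (SE 0.26, 95% interval -0.71 to 0.49). Without wild-type replicate 3 it was 0.17, the opposite sign. Acot2 was steadier, at 86.5, 101 and 96.1 CPM in wild type and 88.0, 85.6 and 117 CPM in knockout. Knockout replicate 3 was highest and the other 5 hearts lay close together. Its log2 fold change was 0.04 (SE 0.17, 95% interval -0.36 to 0.43), and without knockout replicate 3 it was -0.12. Counting both genes as 1 gave 104, 123 and 129 CPM in wild type and 106, 109 and 142 CPM in knockout. For that sum, which does not depend on how the counted reads are split between them, the log2 fold change was 0.01 (SE 0.17, 95% interval -0.39 to 0.41). If reads that match both genes were left uncounted, they are missing from the sum too.

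Per kilobase, Acot1 stood below Acot2 in every heart. The exon lengths used were 3919 bases for Acot1, with 4 transcript forms, and 2196 for Acot2, with 1. The size of the ratio depends on these lengths and on the uncertain split of shared reads. The ratio was 0.111, 0.123 and 0.190 in wild type and 0.114, 0.154 and 0.121 in knockout, highest in wild-type replicate 3 and then knockout replicate 2. Genotypes overlapped, with a log2 difference of -0.10 and p = 0.8 in a two-sided exact permutation test, whose smallest possible p with 3 against 3 hearts is 0.1. The adjusted p over the 3 ratios examined was 1. Of 11 other acyl-CoA thioesterases 8 were tested, all 8 with lower knockout means (7 of 8 with library size alone as the scaling) and a median log2 fold change of -0.10. None was called. Acot3, a peroxisomal member of the same chromosome 12 family, had the smallest p, at 1.27, 1.92 and 1.70 CPM in wild type against 0.770, 0.896 and 0.943 CPM in knockout. The groups did not overlap at these low levels, with a log2 fold change of -0.91 (SE 0.26) that did not pass the test (edgeR adjusted p = 1, unadjusted p = 0.00955). Acot11 (-0.23, SE 0.26) and Acot7 (-0.10, SE 0.19) followed in order of p. The list's direction was not stable: leaving out wild-type replicate 3 or knockout replicate 3 gave 4 higher and 4 lower, and the median ran from -0.27 to 0.04 over the hearts left out in turn.

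The mitochondrial carriers Ucp2 (ENSMUSG00000033685, chr7:100493337-100502020) and Ucp3 (ENSMUSG00000032942, chr7:100472990-100486432) also sit side by side, on the plus strand of chromosome 7. Their coding sequences are less alike, with 75.3% identity and a longest identical run of 24 bases, and they share no 50-base word. Ucp3 is typical of skeletal muscle, heart and brown fat and is induced by fasting, whereas Ucp2 is also made by macrophages and other immune cells. Ucp3 stood at 59.9, 116 and 66.9 CPM in wild type and at 80.1, 53.0 and 111 CPM in knockout. Wild-type replicate 2 and knockout replicate 3 were the high hearts, 1 in each genotype, and the highest heart held 2.19 times the lowest, the widest range among the 7 tested genes. Group means were nearly equal, 81.0 ± 30.6 and 81.4 ± 29.1 CPM (SD, n = 3 each). The log2 fold change was 0.01 (SE 0.34, 95% interval -0.79 to 0.80). Leaving out wild-type replicate 2 gave 0.36, and leaving out knockout replicate 3 gave -0.28.

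Ucp2 stood at 34.2, 41.2 and 46.3 CPM in wild type and at 50.8, 40.4 and 45.7 CPM in knockout. Knockout replicate 1 was highest and wild-type replicate 1 lowest, and the groups overlapped. Its log2 fold change was 0.17 (SE 0.16, 95% interval -0.21 to 0.55). Knockout replicate 1 was also the highest heart for 9 of 10 macrophage markers. It was highest too for 5 of 7 fibroblast markers, 5 of 9 endothelial markers and 21.6% of all tested genes. The summed macrophage level was 280, 314 and 322 CPM in wild type and 451, 236 and 242 CPM in knockout. That sum was lowest in knockout replicates 2 and 3, whereas Ucp2 was lowest in wild-type replicate 1 and next lowest in knockout replicate 2. The part of macrophages in the Ucp2 values was not tested. Ucp2 shares 305 exon bases with Dnajb13 on the opposite strand, and without a stated strand setting reads of that stretch cannot be told apart. Within a heart, the ratio of Ucp3 to Ucp2 per kilobase was 3.90, 6.28 and 3.22 in wild type and 3.52, 2.93 and 5.42 in knockout. The size of this ratio depends on the exon lengths used, 3135 bases for Ucp3 and 6989 for Ucp2, a union over 11 transcript forms. In CPM, without length, Ucp3 was also above Ucp2 in each heart, but by less. The same hearts, wild-type replicate 2 and knockout replicate 3, had the high ratios. Genotypes differed by -0.17 on the log2 scale (two-sided exact permutation p = 0.6, adjusted p = 1). Of 4 other carriers of the family 3 were tested, Slc25a30 (log2 fold change 0.13, SE 0.17), Slc25a14 (-0.09, SE 0.29) and Slc25a27 (-0.05, SE 0.27), and none was called. Ucp1, the carrier of brown fat, had no more than 0.0316 CPM in any heart.

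The hearts that were high in Ucp3 also stood apart in genes of the circadian clock, which were listed for this comparison because many genes of fasting cycle over the day. Dbp, a clock output gene, stood at 16.3, 84.6 and 10.5 CPM in wild type and at 31.8, 20.3 and 142 CPM in knockout. Per2, a core clock repressor, stood at 1.08, 8.10 and 1.58 CPM in wild type and at 2.54, 0.930 and 11.9 CPM in knockout. Arntl, a core clock activator, ran the other way, with 23.8, 5.78 and 23.3 CPM in wild type and 15, 19.8 and 2.09 CPM in knockout. So wild-type replicate 2 and knockout replicate 3 were the 2 highest hearts for Dbp and Per2 and the 2 lowest for Arntl, as they were the 2 highest for Ucp3. Their likeness was not limited to these genes. Over all tested genes their deviations from the group means correlated at 0.43, against 0.49 for wild-type replicate 2 and knockout replicate 1. How many tested genes had these 2 hearts highest or lowest was not counted. Dbp, Per2 and Arntl were chosen after their values were seen. The 3 clock genes with the smallest p for genotype were Nr1d2 (log2 fold change 0.30, SE 0.24), Bhlhe41 (0.60, SE 0.49) and Nr1d1 (0.25, SE 0.29). Of 15 clock genes 10 had higher and 5 lower knockout means, none was called, and the median log2 fold change was 0.25. Leaving out knockout replicate 3 turned this to 5 higher and 10 lower, with a median of -0.05. With both hearts left out, an alternative added after the values were seen, the log2 fold change of Ucp3 was 0.06 and that of Angptl4 was 0.01. The part of collection time in the Ucp3 values was not tested.

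**Figure D2:**
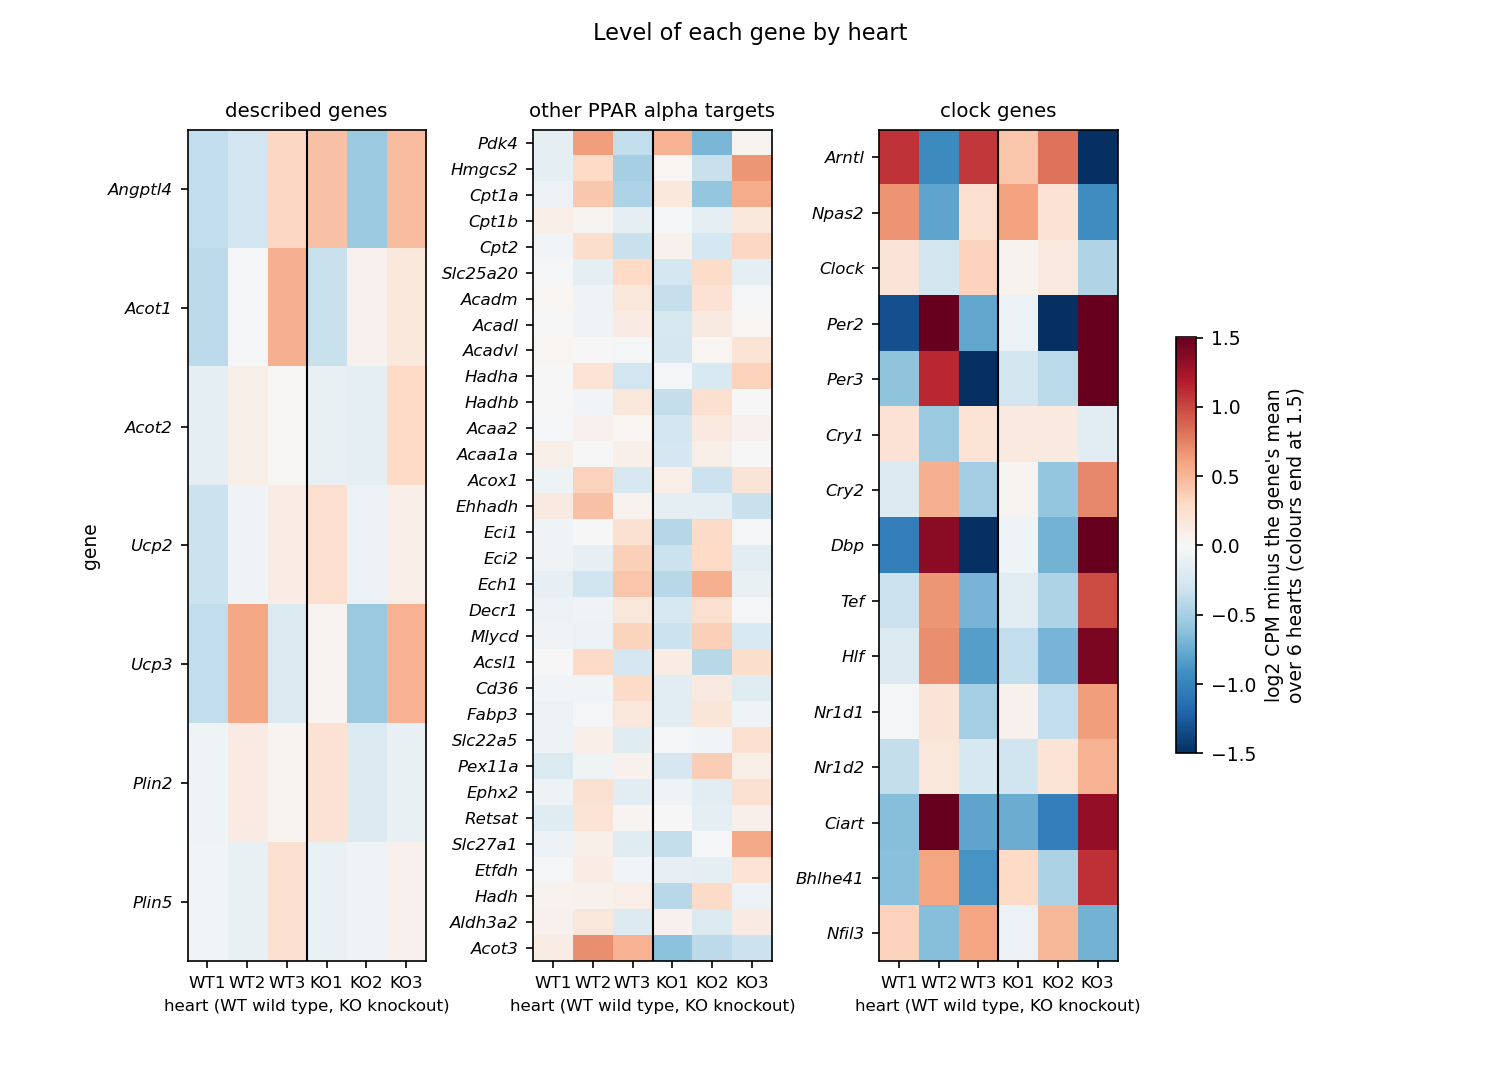
Level of each gene in each heart (columns), as log2 CPM minus the gene's mean over the 6 hearts, for the 7 tested genes, 32 other PPAR alpha targets and 15 clock genes (rows). Red is above and blue below the gene's own mean. Ucp3, Dbp and Per2 are red in wild-type replicate 2 and knockout replicate 3, where Arntl is blue.

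The lipid droplet coat genes varied least. Plin5 (ENSMUSG00000011305, chr17:56111601-56117596, minus strand), which tethers droplets to mitochondria in oxidative tissue, stood at 136, 130 and 166 CPM in wild type and at 131, 134 and 146 CPM in knockout. Wild-type replicate 3 was the high heart, the other 5 lay within a narrow band, and the knockout values fell inside the wild-type range. The log2 fold change was -0.07 (SE 0.15, 95% interval -0.42 to 0.29). Plin2 (ENSMUSG00000028494, chr4:86648386-86670060, minus strand), the coat protein found on droplets of most tissues, stood at 58.4, 66.3 and 62.9 CPM in wild type and at 70.8, 53.0 and 56.7 CPM in knockout. Knockout hearts included both the highest and the lowest value. The log2 fold change was -0.06 (SE 0.15, 95% interval -0.42 to 0.31). Per kilobase the ratio of Plin5 to Plin2 was 3.91, 3.29 and 4.44 in wild type and 3.12, 4.25 and 4.34 in knockout. Its size depends on the exon lengths used, 2087 bases for Plin5 and 3512 for Plin2. Genotypes did not separate, with a log2 difference of 0.00 (two-sided exact permutation p = 1).

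Among 17 other genes of droplet coats and lipolysis, 15 were tested, 5 with higher and 10 with lower knockout means, and none was called. Plin3, a relative of Plin2 that moves between cytosol and droplets, had the smallest p, at 193, 199 and 205 CPM in wild type and 141, 177 and 104 CPM in knockout. The groups did not overlap, but the difference did not pass the test (log2 fold change -0.50, SE 0.21, edgeR adjusted p = 1, unadjusted p = 0.0436). Plin3 was 1 of 2 genes among the 15 whose groups did not overlap, as in 4.07% of all tested genes. Cideb (-0.32, SE 0.25) and hormone-sensitive lipase, Lipe (0.28, SE 0.25), came next in order of p. The list had a median log2 fold change of -0.08, which ran from -0.10 to 0.06 when 1 heart was left out, with 9 higher and 6 lower without wild-type replicate 3.

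Angptl4 (ENSMUSG00000002289, chr17:33773750-33781830, minus strand) encodes a secreted inhibitor of lipoprotein lipase, the enzyme that frees fatty acids from circulating triglyceride. It had 228, 285 and 386 reads in wild type and 541, 184 and 487 reads in knockout, which is 7.21, 7.59 and 11.5 CPM against 12.6, 6.34 and 12.8 CPM. The highest 2 hearts were knockout replicates 3 and 1, but knockout replicate 2 was the lowest of all 6, and wild-type replicate 3 lay near the high knockout hearts. The knockout mean was 1.21 times the wild-type mean in the fit, with a 95% interval of 0.727 to 2.01 (log2 fold change 0.27, SE 0.31, edgeR adjusted p = 1). Angptl4 had the largest difference of the 7 genes and the only interval that reached 2-fold.

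That value rested on which hearts were used. Leaving out knockout replicate 2 gave Angptl4 a log2 fold change of 0.53 (SE 0.23, edgeR unadjusted p = 0.0537, adjusted p = 0.613). Without wild-type replicate 3 it was 0.52. With both left out, a pair chosen because earlier results of these data had shown them to be alike, it was 0.77 (SE 0.14, 95% interval 0.42 to 1.11, edgeR unadjusted p = 0.00125, adjusted p = 0.686). In those 4 hearts Ucp2 stood at 0.35 (SE 0.13, unadjusted p = 0.0367, adjusted p = 0.709 in edgeR). For both Angptl4 and Ucp2, wild-type replicate 3 was the highest wild-type heart and knockout replicate 2 the lowest knockout heart. Leaving out these hearts therefore had to widen both differences, so the counts that follow are no separate support. In the remaining 4 hearts 2 of 7 genes had an unadjusted p under 0.05 in edgeR, where 6.71% of all genes did. For the same 2 both knockout hearts lay above both wild-type hearts, against 19.2% of all genes. Neither passed the adjusted test, which called 0.0137% of genes in these 4 hearts. Leaving out any 1 of the other 4 hearts gave Angptl4 a value of 0.12 to 0.17. With wild-type replicate 2 and knockout replicate 3 left out instead, Angptl4 stood at 0.01 and Ucp2 at 0.17.

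Other cell types varied between the same hearts. Summed fibroblast markers were 544, 744 and 496 CPM in wild type and 1170, 411 and 851 CPM in knockout, and summed endothelial markers were 527, 687 and 423 CPM against 778, 413 and 605 CPM. Both sums were lowest in knockout replicate 2 and next lowest in wild-type replicate 3, and highest in knockout replicate 1. All 7 fibroblast and all 9 endothelial markers were detected, and 6 of each had higher knockout means, with Lum (log2 fold change 0.75, SE 0.24), Col3a1 (1.09, SE 0.69) and Kdr (0.39, SE 0.45) among those with the smallest p. None was called. The fibroblast list had a median log2 fold change of 0.75, and Lum alone in it had an unadjusted p under 0.05 (edgeR unadjusted p = 0.017, adjusted p = 1) and groups that did not overlap. Angptl4 was lowest in knockout replicate 2 as these sums were, but high in wild-type replicate 3, where they were low. Their part in the Angptl4 values was not tested. Knockout replicate 2 was the lowest heart for 4 of the 7 genes, Angptl4, Acot2, Ucp3 and Plin2, and for 20.4% of all tested genes.

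**Figure D3:**
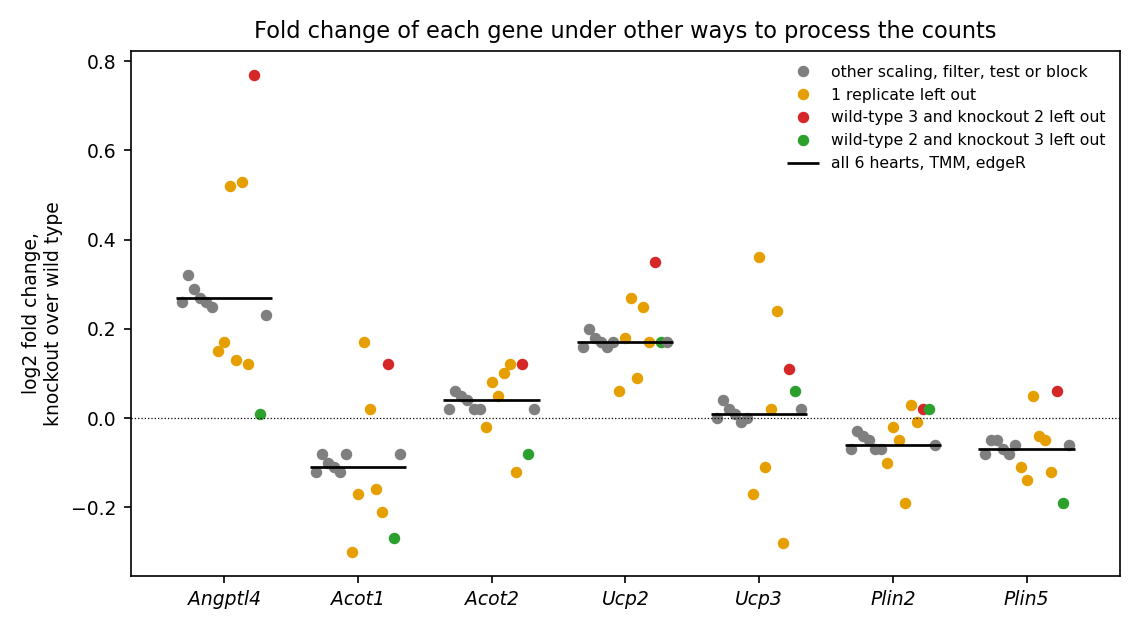
Log2 fold change of knockout over wild type (vertical axis) for the 7 tested genes under each way of processing the counts. The black line is the value from all 6 hearts, and each point is 1 alternative, coloured by kind; Angptl4 ranges from 0.01 to 0.77, and the points of Acot1, Acot2, Ucp3, Plin2 and Plin5 fall on both sides of 0.

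The enzyme that Angptl4 inhibits was abundant. Lpl stood at 6320, 6970 and 6880 CPM in wild type and at 6050, 6390 and 6380 CPM in knockout, with overlapping groups and a log2 fold change of -0.10 (SE 0.16). Of 11 genes of the lipoprotein lipase pathway 8 were tested, 3 with higher and 5 with lower knockout means (4 and 4 with library size alone), and none was called. The lipoprotein receptor Vldlr (-0.13, SE 0.18) and the lipase maturation factor Lmf2 (0.09, SE 0.22) were, with Lpl, the members with the smallest p. The list's median log2 fold change was -0.03, and without wild-type replicate 2 the split was 6 higher and 2 lower with a median of 0.03.

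Fgf21 (ENSMUSG00000030827, chr7:45613886-45615490, minus strand) encodes a hormone made mainly by liver in fasting. It had 2, 6 and 0 reads in wild type and 3, 1 and 0 reads in knockout. A count of 0 allows up to 3 reads at 95% confidence, so these hearts cannot be ranked and no fold change is given. Hepatocyte markers were low too, with 7 markers summing to 2.5 to 4.27 CPM per heart. Of 6 receptors and co-receptors of FGF21, Fgfr1 (log2 fold change 0.19, SE 0.35), Fgfr2 (0.48, SE 0.42) and Fgfr3 (0.20, SE 0.36) were tested and none was called. Klb, the co-receptor that FGF21 requires, was at 0.00 CPM in 4 hearts and reached 0.119 CPM in wild-type replicate 3.

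Promoter sequence was examined for the element that PPAR alpha binds with its retinoid X receptor partner, AGGTCA followed by any 1 base and AGGTCA again. Promoters from 250 bases before to 50 bases after the start came from RefSeq (GRCm38.p6) and covered 7 of the 8 genes, Plin5 by 2 promoters. Angptl4 had no entry. Both strands were searched for the best match to the 12 fixed letters. The following windows are the 2 best matches, in the Ucp3 and Plin2 promoters, with the matched bases in capitals. The Ucp3 window lies at chr7:100472926-100472966 (plus strand) and the Plin2 window at chr4:86670258-86670298 (minus strand), where the element matches on the strand opposite to the one printed.
Ucp3: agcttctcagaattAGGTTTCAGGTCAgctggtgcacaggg
Plin2: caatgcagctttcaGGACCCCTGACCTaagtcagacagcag
Each matches 10 of 12 letters, and 3.86% of 32851 mouse promoters hold a match of at least that many. Acot2 and both Plin5 promoters reached 9 letters, met or exceeded by 24.6% of promoters, and Acot1, Ucp2 and Fgf21 reached 8, met or exceeded by 79.8%. A single AGGTCA on either strand was present in the promoters of Plin2, Ucp3 and Plin5 and in 16.3% of all promoters. These matches describe the letters of the windows only.

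The wider set of PPAR alpha targets held no called gene either, where 0.00689% of all tested genes were called, Arrdc4 alone. Of 38 other targets 32 were tested, 11 with higher and 21 with lower knockout means, and 0 passed the adjusted test in edgeR. That split rested on single hearts, being 23 higher and 9 lower when knockout replicate 1 was left out and 5 and 27 when knockout replicate 3 was. Their median log2 fold change was -0.03 (-0.08 to 0.04 with 1 heart left out), against 0.01 over all genes, and the 95% interval lay within 2-fold for 31 of 32. Pdk4, the kinase that shuts pyruvate out of the citric acid cycle in fasting, stood at 303, 518 and 260 CPM in wild type and at 483, 209 and 344 CPM in knockout. The high hearts were wild-type replicate 2 and knockout replicate 1, and the groups overlapped (log2 fold change -0.06, SE 0.37). Cpt1a, which admits fatty acids to mitochondria, was high in the same hearts as Ucp3, at 41, 57.7 and 31.7 CPM in wild type and 48.5, 29.2 and 64.2 CPM in knockout. Cpt1b, in the same list, was more abundant, with a mean of 35.5 CPM per kb against 5.94 for Cpt1a, and did not share that pattern. It stood at 128, 123 and 108 CPM in wild type and 118, 109 and 134 CPM in knockout. Its highest hearts were knockout replicate 3 and wild-type replicate 1. Pdk4, Cpt1a and Cpt1b were named after their values were seen.

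In this list 2 of 32 genes had an unadjusted p under 0.05, against 1.23% of all genes, and the same 2 had groups that did not overlap, against 4.07%. They were Acot3, described above, and Ehhadh, the peroxisomal bifunctional enzyme of fatty acid oxidation. Ehhadh stood at 19.0, 23.4 and 18.0 CPM in wild type and at 15.6, 15.7 and 13.7 CPM in knockout. All knockout values were lower, without passing the test (log2 fold change -0.42, SE 0.16, edgeR adjusted p = 1, unadjusted p = 0.0289). Pex11a, a peroxisome division gene, was the third by p (0.16, SE 0.19). Knockout replicate 1 was the lowest heart for 17 of the 32 genes, for 0 of the 7 genes described above and for 19.3% of all tested genes. Across 23 glucocorticoid and FoxO genes of fasting, 7 had higher and 16 lower knockout means, none was called, and the median log2 fold change was -0.18. Leaving out wild-type replicate 2 gave 12 higher and 11 lower, with a median of 0.01. Its members with the smallest p were Ddit4 (-0.75, SE 0.31), Irs2 (-0.88, SE 0.50) and Cdkn1a (-0.88, SE 0.51).

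**Figure D4:**
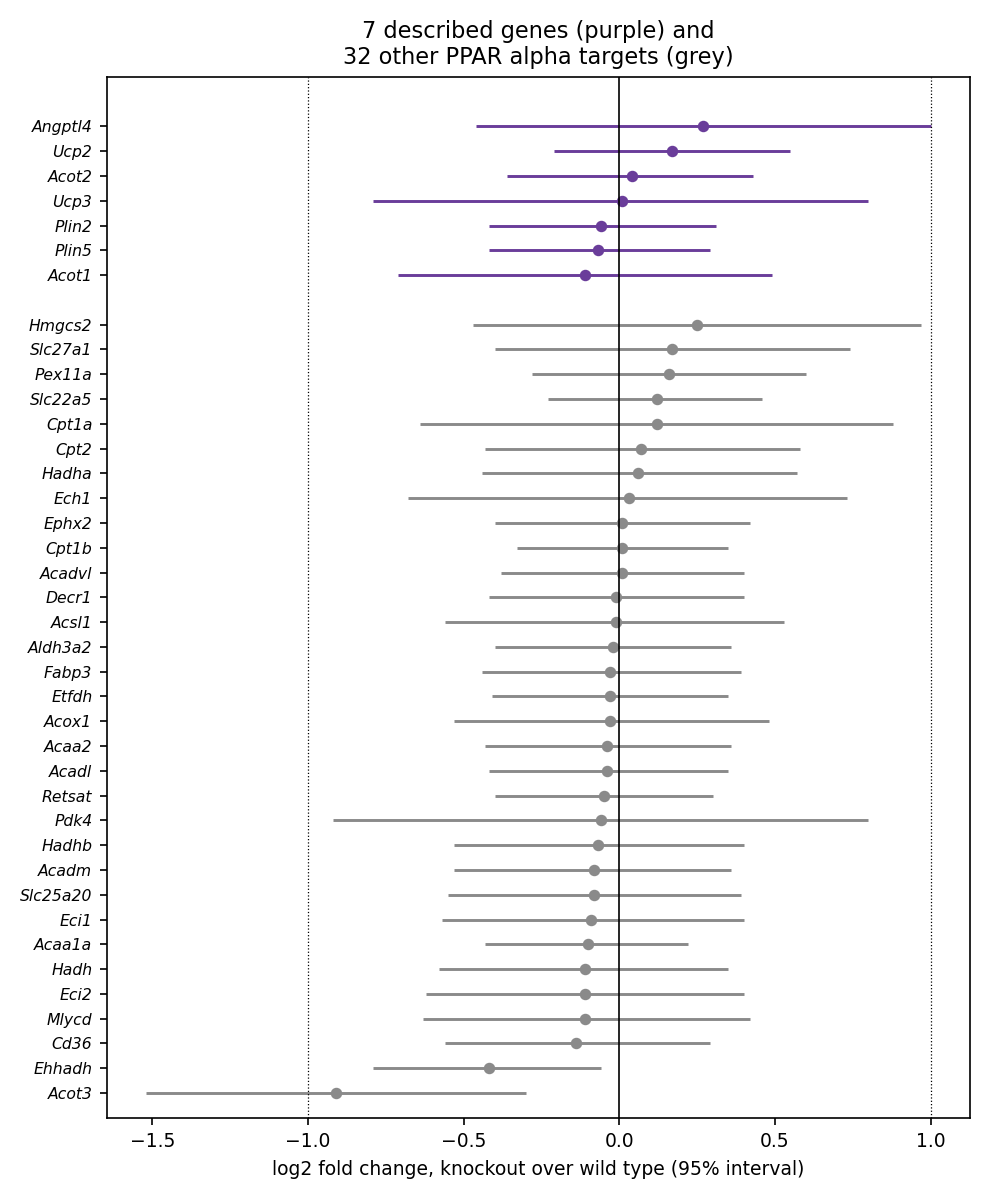
Log2 fold change of knockout over wild type (horizontal axis) with its 95% interval for the 7 tested genes (purple) and 32 other PPAR alpha targets (grey). Dotted lines mark a 2-fold difference in either direction; all 7 purple intervals include 0, and among the grey only those of Acot3 and Ehhadh do not.

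Shared variation of the 7 tested genes was examined pair by pair. Across the 6 hearts, 17 of 21 pairs had a positive and 4 a negative Pearson r of log2 CPM, and none passed an exact permutation test adjusted over the 21 pairs (smallest adjusted p = 0.34 for r and 0.7 for Spearman's rho). With so few hearts a single pair could not have passed by rho even if perfectly ordered, so these tests do not show that the genes vary independently. Angptl4 and Ucp2 had r = 0.82 (exact permutation p = 0.0472, adjusted p = 0.34; rho = 0.77, exact p = 0.103), and r was 0.92 without the 2 hearts farthest from the Angptl4 median. Acot1 and Plin5, both highest in wild-type replicate 3, had r = 0.82 (exact permutation p = 0.0417, adjusted p = 0.34; rho = 0.60, exact p = 0.242). That r was 0.67 without the 2 hearts farthest from the Acot1 median, wild-type replicates 1 and 3. Acot2 and Ucp3 had r = 0.81 (exact permutation p = 0.0486, adjusted p = 0.34; rho = 0.89, exact p = 0.0333), which rested on knockout replicate 3 and wild-type replicate 2, since r was 0.36 without them. The paralogs were less alike, with r = 0.46 for Acot1 and Acot2, 0.37 for Ucp2 and Ucp3 and -0.13 for Plin2 and Plin5.

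Each gene's nearest companions over the 6 hearts are given as a description, by Pearson r of log2 CPM among the 10456 to 10461 tested genes whose mean log2 CPM was 1 or more. Angptl4 was most like Bag5 (r = 0.983), Slc39a14 (0.977) and Arhgap19 (0.969), and Ucp2 was most like Rassf1 (0.989), Klhl2 (0.985) and Ier5 (0.976). For Acot1 the nearest were Zfp787 (0.993), Sppl2a (0.968) and Scarb2 (0.962), and for Acot2 they were Trim7 (0.985), Pik3r1 (0.981) and Fgfr3 (0.977). The nearest to Plin2 were Kctd21 (0.980), Ifi204 (0.969) and Mfge8 (0.965), and those to Plin5 were Hsf2 (0.994), Nr0b2 (0.989) and Fam8a1 (0.986). Ucp3 had Ramp2 (0.993), Hmgxb4 (0.992) and Naa30 (0.981), and 240 genes in all had r above 0.9 with it, against 21 to 52 for the other 6 genes. These r values come from a search over all those genes in 6 hearts and carry no test.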

How the data were processed

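Per the labels' protocols, heart RNA was isolated with a Qiagen RNeasy kit and sequenced from NEBNext Ultra II libraries. The authors deposited whole-number read counts per gene and heart, not normalized. The submitters' processing notes name the build GRCm38.p6 and the tools STAR, featureCounts, DESeq2 and Subread 1.5.2. The sources used here state neither the strand setting nor how reads that match several genes were handled. Samples were grouped by title and genotype label. Nothing says how the animals were related, so p-values measure only the spread between these hearts, and reads carry no molecular identifiers.

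From the counts, genes were kept by filterByExpr of edgeR 4.0.16 (minimum count 10, minimum total 15), scaled by TMM and tested with the quasi-likelihood F test in R 4.3.3. Adjustment was by Benjamini-Hochberg over 14508 genes with a threshold of 0.05. The biological coefficient of variation was 24.2%. CPM used TMM-scaled library sizes. Of 49315 identifiers, 48970 matched a symbol. Coordinates, exon lengths and sequences came from the GENCODE annotation of GRCm38, and promoters from RefSeq. Alternatives were limma-voom (limma 3.58.1) and DESeq2 1.42.0, beside other scalings, filters, left-out hearts and a replicate block. The edgeR fit was tested on simulated counts.

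The described genes and all gene lists were chosen with earlier results of these data known. Named in the text are the described genes, Arrdc4, up to 3 genes with the smallest p per list, the 3 genes most like each described gene, and genes said to be chosen after their values were seen or given as a list's defining member (Ppara, Ucp1, Klb, Adipoq, Plin1, Lep). A gene that this rule names is not reported here.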

Additional observations from a re-analysis of the deposited data

How the results depend on the processing

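None of the 7 tested genes was called in any of 15 alternatives. The number of genes called in the whole table, 1 with all hearts, was 0 to 1 when 1 heart was left out, being 0 without knockout replicate 3. It was 2 with both wild-type replicate 3 and knockout replicate 2 left out, and 0 with both wild-type replicate 2 and knockout replicate 3 left out. With the replicate number as a replicate block it was 0 and the log2 fold change of Angptl4 was 0.23. The labels do not say that same-numbered hearts belong together. Deviations of same-numbered hearts from their group means correlated at 0.18, -0.65 and -0.40, which cannot show whether any were collected or processed together.

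Values near 0 changed sign. When 1 heart was left out, the log2 fold change ran from -0.30 to 0.17 for Acot1, -0.12 to 0.12 for Acot2, -0.28 to 0.36 for Ucp3, -0.19 to 0.03 for Plin2 and -0.14 to 0.05 for Plin5. The log2 difference in ratio ran from -0.25 to 0.13 for Acot1 over Acot2 and from -0.42 to 0.11 for Ucp3 over Ucp2. Without wild-type replicate 3 and knockout replicate 2 the log2 fold change was 0.12 for Acot1, 0.02 for Plin2 and 0.06 for Plin5. Without wild-type replicate 2 and knockout replicate 3 it was -0.08 for Acot2 and 0.02 for Plin2. DESeq2 gave -0.01 for Ucp3, and the summed Acot1 and Acot2 counts gave 0.01. The cause was not tested. With library size alone, r of Acot1 and Plin5 was 0.56. With 3 hearts per genotype, the 95% intervals of Angptl4, Ucp3 and Acot1 reached past 1.5-fold.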
